A study of Saccharomyces cerevisiae with 4 samples.

Results

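The replication machinery described here is a set of 42 budding yeast genes, picked by name from the 6782 gene rows of the deposited table. It holds the origin recognition complex, the MCM2-7 helicase with its loading and activation factors, the GINS complex, the replicative polymerases, the sliding clamp and its loader, replication protein A, DNA ligase I and thymidylate synthase. All 42 names were found, and all 42 passed the filter on low values. The rule used the names alone, but the members were chosen with earlier results of these data known.

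The cultures were Saccharomyces cerevisiae of the W303 background. Every culture, induced or not, carried 1 integrated copy of the 6xIAPP construct at LEU2 behind a promoter that estradiol turns on. IAPP is islet amyloid polypeptide, an amyloid-forming hormone of pancreatic beta cells. The 2 induced cultures received 100 nM estradiol for 6 h, and the 2 uninduced cultures received the solvent DMSO for 6 h, all in log phase. No library of a strain without the construct was analysed here, so the effects of estradiol and of 6xIAPP cannot be told apart. The series title names 6xIAPP toxicity as the subject, and the comparison asks how mRNA levels differed between induced and uninduced cells.

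Replication starts at origins that the origin recognition complex (ORC) marks throughout the cell cycle. In G1, ORC and Cdc6 load the ring-shaped MCM2-7 complex onto DNA, and at the start of S phase Cdc45 and GINS join it to form the active helicase. Polymerase alpha-primase then lays down primers, polymerase epsilon extends the leading strand and polymerase delta the lagging strand, both held by the clamp PCNA. Many of these genes are transcribed in a burst once per cell cycle, either at the G1/S boundary through the factor MBF or at the end of mitosis through Mcm1.

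Polyadenylated RNA was sequenced, and whole reads recovered from the deposited values came to 11694161 and 14724917 in the induced libraries and 15582338 and 10397606 in the uninduced ones. The members had from 32 to 2033 reads in a library, with CDC6 the lowest and SLD5 next, at no fewer than 104. Levels are given in normalized CPM (reads scaled by the authors' library size), with mean ± SD of n = 2 libraries per group. Differences are those of log2(CPM + 1) between induced and uninduced libraries, with ± SE from limma. The added 1 CPM makes the change of weakly expressed genes look smaller than it is. A gene was called at a Benjamini-Hochberg adjusted p under 0.05 over the 6037 genes kept. The libraries held no added standard, so all levels are shares of the polyadenylated RNA. In bulk cultures, fewer cells in a cell cycle phase and less RNA per cell cannot be told apart.

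The 42 genes split in direction, and most of their differences were small. In the induced libraries 8 genes rose, 21 fell and 13 were not called. Called members made up 69.0% of the set, and 72.7% of all 6037 genes kept were called, so the share was near the background. By direction, 19.0% of the members rose, beside 35.6% of all genes, and 50% fell, beside 37.0% of all genes. The members' median difference was -0.16, against 0.00 for all genes kept, and their median absolute difference was 0.26, against 0.39 for all genes. Scaling the libraries to their total reads moved the median of all genes to 0.12 and that of the members to -0.03. The calls then numbered 12 higher and 8 lower, and the distance of the members' median to that of all genes was -0.16 under both scalings. With edgeR on the recovered reads 8 members rose and 20 fell (73.1% of all genes called, 36.4% higher and 36.7% lower), and with DESeq2 7 rose and 16 fell (63.3%, 30.8% and 32.5%). In 34 members the groups did not overlap, 12 higher and 22 lower, where 86.0% of all genes did not overlap (42.9% higher, 43.1% lower). Called members with a change of at least 1.5-fold numbered 6, with 2 higher and 4 lower, where 34.1% of all genes passed (16.1% higher, 18.0% lower). Tested against a 1.2-fold change, 7 members passed, where 44.5% of all genes did (21.3% higher, 23.2% lower). CDC45 and DPB3 were higher, and POL1, POL2, POL30, PRI2 and MCM7 lower. The calls of these 7 held in all 16 alternative settings tried. The 1.2-fold test is among those settings, so no other called member could hold in all of them.

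**Figure D1:**
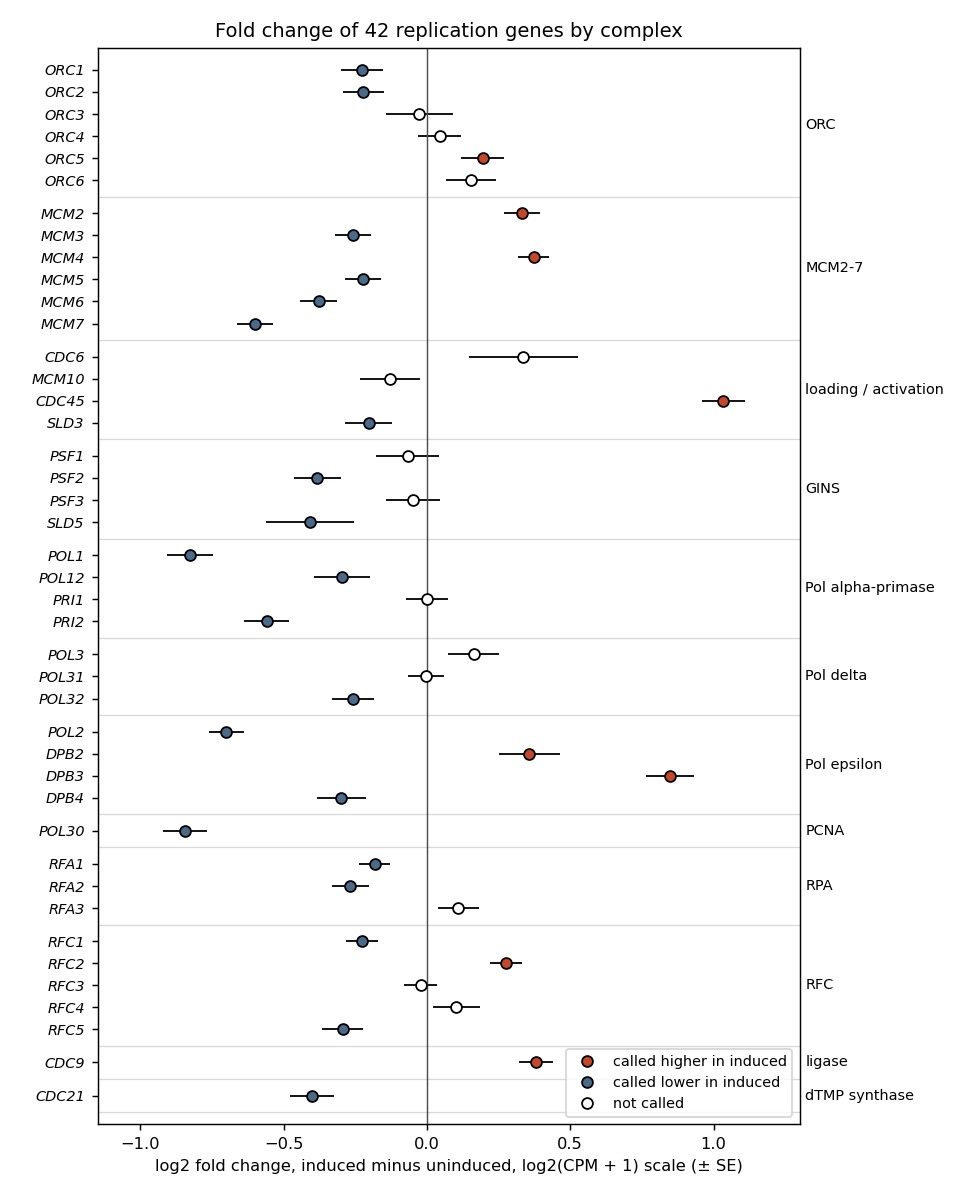
Difference in log2(CPM + 1), induced minus uninduced, of each of the 42 genes with its SE, grouped by complex, with filled points for genes called by limma. CDC45 lies farthest right at 1.03 and POL30 farthest left at -0.85, and most complexes hold points on both sides of 0. With total-count scaling 13 of the lower calls are lost.

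Among the origin recognition genes, the spread was narrow. ORC1, the largest subunit and an ATPase, had 43.3 and 45.6 CPM in the induced libraries, against 52.2 ± 0.457 CPM in uninduced cells with libraries at 51.9 and 52.5 CPM. It fell by 0.23 on the log2 scale (± 0.072, adjusted p = 0.013). ORC2 averaged 46.2 ± 0.971 CPM in induced cells and 54.0 ± 0.417 CPM in uninduced cells (-0.22, adjusted p = 0.0128). ORC5, an ATP-binding subunit, rose by 0.19 (45.9 ± 1.23 CPM induced, 40.0 ± 0.857 CPM uninduced, adjusted p = 0.0332). ORC3, ORC4 and ORC6 were not called, with differences of -0.03, 0.04 and 0.15. These 3 calls were thin. With DESeq2 none of them was made (adjusted p = 0.0799 for ORC1, 0.0771 for ORC2 and 0.143 for ORC5). ORC1 had adjusted p = 0.095 (-0.19) without induced library 1, and ORC2 had adjusted p = 0.0776 (-0.20) without induced library 2. ORC5 was not called without uninduced library 2 (0.17, adjusted p = 0.106), induced library 1 (0.17, adjusted p = 0.163) or induced library 2 (0.22, adjusted p = 0.0728). With total-count scaling ORC1 was at -0.10 and ORC2 at -0.10, neither called, and ORC6 was called at 0.28.

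The 6 subunits of the MCM2-7 ring moved in opposite directions. MCM4, a target of the initiation kinase Cdc7, had 130.5 and 130.6 CPM in the induced libraries, against 101.6 and 99.6 CPM in the uninduced libraries (0.37 ± 0.054, adjusted p = 4.09e-05). MCM2 had 82.7 and 87.0 CPM induced, against 68.5 and 66.0 CPM uninduced (0.33 ± 0.063, adjusted p = 0.000425). In both genes each induced library lay above each uninduced one. MCM7 fell most, with 64.7 and 62.8 CPM in the induced libraries and 94.1 and 100.5 CPM in the uninduced libraries (-0.60 ± 0.063, adjusted p = 2.13e-06). MCM6 averaged 58.4 ± 1.22 CPM induced and 76.2 ± 1.23 CPM uninduced (-0.38, adjusted p = 0.00016). MCM3 was at 63.2 ± 0.947 CPM induced and 75.8 ± 0.943 CPM uninduced (-0.26), and MCM5 at 61.7 ± 1.13 CPM and 72.2 ± 0.546 CPM (-0.22). The groups did not overlap in any of the 6 genes, as in 86.0% of all genes kept. With total-count scaling MCM3 (-0.13, adjusted p = 0.0758) and MCM5 (-0.10, adjusted p = 0.182) were no longer called, while the other 4 kept their direction and call.

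A ratio of 2 genes within a library does not depend on how libraries are scaled. The pairs given here and below were picked by hand, with earlier results of these data known. A shift in a ratio restates the differences of its 2 genes. Per coding length, the MCM4 level was 1.83 and 1.88 times the MCM7 level in the induced libraries, against 0.978 and 0.898 times in the uninduced libraries. The ratio of MCM2 to MCM7 was 1.245 and 1.35 in induced cells, against 0.709 and 0.640 in uninduced cells. MCM7 was thus the highest of the 6 per coding length in uninduced cells (38.3 CPM per kb) and MCM4 in induced cells (46.6 CPM per kb), while MCM6 was lowest in both groups, at 19.1 CPM per kb induced and 24.9 CPM per kb uninduced. The highest-to-lowest ratio in the ring was 2.44 in induced cells and 1.54 in uninduced cells. With 2 libraries a group, an exact permutation test of such a ratio cannot reach 0.05, so none is given.

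**Figure D2:**
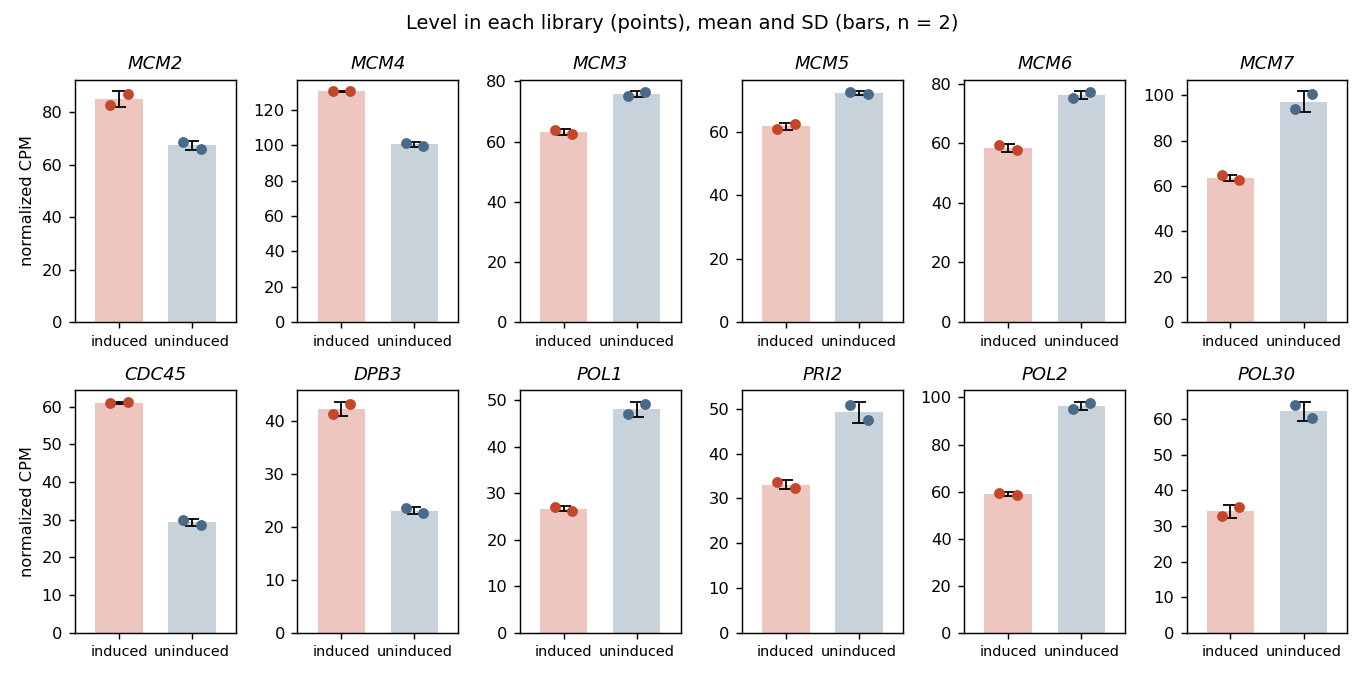
Normalized CPM of the 6 MCM2-7 genes and of 6 further members in each library (points), with the group mean (bar) and SD (n = 2, induced left of uninduced in each panel). MCM2, MCM4, CDC45 and DPB3 are higher in both induced libraries, and the other 8 genes are lower in both. The groups did not overlap in 86.0% of all genes kept.

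The promoters of the ring genes differed in a way that ran alongside these directions. Binding sites of Mcm1 at the early cell cycle box (ECB), a palindrome, drive transcription at the end of mitosis. The search was for CC and GGNAA with NNNNNN between them, preceded by TTN, where N is any base, in a window from 250 bases before to 50 bases after each start codon, on the R64 sequence of the S288C reference strain, so differences in W303 are not seen. The palindrome was found for MCM3, MCM5, MCM6 and MCM7, each of which fell, and not for MCM2 and MCM4, which rose. With total-count scaling MCM3 and MCM5 were not called. Among the other members CDC6 held the palindrome, and it was not called (0.34). This form of the motif was chosen with the directions known, so the split of the ring genes is a description only. The sites are shown with 4 flanking bases on the gene's strand and the palindrome in capitals. Positions are chrV:86748-86771 for MCM3, chrXII:691397-691420 for MCM5, chrVII:121066-121089 for MCM6, chrII:625539-625562 for MCM7, chrII:625555-625578 for MCM7, chrX:69141-69164 for CDC6, chrX:69157-69180 for CDC6, in the order of the sequences, with MCM6 on the minus strand and the others on the plus strand.
MCM3: tactTTTCCTAAATGGGTAAaaac
MCM5: cgtgTTTCCCTTTTAGGAAAagtg
MCM6: taaaTTTCCTTTTTAGGAAAagcg
MCM7, upstream site: taatTTACCCAGAAAGGAAAtttc
MCM7, downstream site: gaaaTTTCCTTATAAGGAAAataa
CDC6, upstream site: ggagTTTCCAGATCAGGAAAttac
CDC6, downstream site: gaaaTTACCCACTTAGGAAAttga

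Across the genome the palindrome was in 0.917% of 6001 promoters. Of 50 tested genes with it, 18 rose and 18 fell, with a median of 0.09, against -0.01 for genes without it. The palindrome form was chosen after the values were seen. The shorter core without TTN, searched on both strands, was in 14.3% of the members (MCM3, MCM5, MCM6, MCM7, CDC6 and RFA3) and in 8.92% of all promoters. A match describes these letters and is not a site shown to be bound.

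Among the factors that load and activate the ring, CDC45 stood far from the other 3. Its protein is a fixed subunit of the active helicase. CDC45 had 60.8 and 61.2 CPM in the induced libraries, against 29.9 and 28.7 CPM in the uninduced libraries. The ratio of means was 2.08 (1.03 ± 0.075, adjusted p = 6.09e-08), the largest rise of any member, and over all settings the difference ran from 0.945 to 1.16. SLD3, which brings Cdc45 to the loaded ring, averaged 29.0 ± 0.284 CPM induced and 33.6 ± 0.145 CPM uninduced (-0.20 ± 0.083, adjusted p = 0.0416). The SLD3 call was lost in 11 of the 16 alternative settings. Among these were total-count scaling (-0.081, adjusted p = 0.394), edgeR (adjusted p = 0.0519), DESeq2 (adjusted p = 0.191) and leaving out any one of the 4 libraries (-0.21 to -0.19, adjusted p = 0.0867 to 0.14). MCM10, needed for helicase activation, was at 15.8 ± 0.422 CPM induced and 17.4 ± 0.801 CPM uninduced and was not called. CDC6, the G1 loader, was near the bottom of the set with 5.77 and 4.30 CPM induced, against 4.35 and 3.21 CPM uninduced. Its groups overlapped (0.34 ± 0.19, adjusted p = 0.128), and it was called higher without uninduced library 1 (0.51, adjusted p = 0.035).

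GINS, the other partner of the ring, has 4 subunits, none of which rose, where 35.6% of all genes kept rose. PSF2 had 30.9 and 33.3 CPM in the induced libraries, against 43.3 and 40.9 CPM in the uninduced libraries (-0.38 ± 0.082, adjusted p = 0.00107). SLD5 averaged 9.39 ± 1.34 CPM induced and 12.9 ± 2.76 CPM uninduced (-0.41 ± 0.15, adjusted p = 0.0306). Uninduced library 1 carried much of that difference: without it SLD5 was at -0.20 (adjusted p = 0.274), without induced library 1 at -0.28 (adjusted p = 0.225), and without uninduced library 2 at -0.61. SLD5 was also not called with total-count scaling (-0.29, adjusted p = 0.111), with DESeq2 (adjusted p = 0.0907) or without the variance trend (-0.41, as with it). PSF1 (-0.07) and PSF3 (-0.05) were not called. Per coding length, CDC45 was at 0.648 and 0.604 times PSF2 in the induced libraries, against 0.227 and 0.230 times in the uninduced libraries.

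Polymerase alpha-primase, which starts every new strand, fell in 3 of its 4 subunits, where 37.0% of all genes kept fell. POL1, the DNA polymerase subunit, had 27.0 and 26.3 CPM in the induced libraries, against 47.0 and 49.2 CPM in the uninduced libraries (-0.83 ± 0.080, adjusted p = 9.6e-07). PRI2, the large primase subunit, had 33.8 and 32.4 CPM induced, against 50.9 and 47.6 CPM uninduced (-0.56 ± 0.079, adjusted p = 3.16e-05). POL12, the regulatory subunit, fell by 0.30 (26.2 ± 2.29 CPM induced, 32.3 ± 2.75 CPM uninduced, adjusted p = 0.016). Total-count scaling (-0.17, adjusted p = 0.123) and DESeq2 (adjusted p = 0.0716) ended the POL12 call, and so did leaving out uninduced library 2 (-0.21, adjusted p = 0.0998) or induced library 2 (-0.21, adjusted p = 0.148). PRI1, the catalytic primase subunit, was at 50.6 and 46.6 CPM in the induced libraries and 49.1 and 48.0 CPM in the uninduced libraries (adjusted p = 0.999). The ratio of PRI1 to POL1 per coding length was 6.70 and 6.35 in induced cells, against 3.74 and 3.495 in uninduced cells.

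Of the 3 polymerase delta genes, which copy the lagging strand, 1 was called, where 72.7% of all genes kept were called. POL3, its catalytic subunit, averaged 44.9 ± 1.12 CPM induced and 40.1 ± 4.75 CPM uninduced (0.16 ± 0.089, adjusted p = 0.118), and total-count scaling made it a higher call (0.29, adjusted p = 0.0107), as did leaving out uninduced library 2 (0.28, adjusted p = 0.0104). POL31 was at 104 ± 2.64 CPM induced and 104 ± 7.27 CPM uninduced. POL32, its non-essential subunit, fell by 0.26 (43.9 ± 0.554 CPM induced, 52.7 ± 2.64 CPM uninduced, adjusted p = 0.00726), a call that total-count scaling ended (-0.13, adjusted p = 0.118).

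Of the 4 polymerase epsilon genes, 2 rose (DPB2 and DPB3) and 2 fell (POL2 and DPB4). Among all genes kept, 35.6% rose and 37.0% fell. POL2, the catalytic subunit of the leading-strand enzyme, had 59.4 and 58.5 CPM in the induced libraries, against 95.3 and 97.6 CPM in the uninduced libraries (-0.70 ± 0.061, adjusted p = 3.63e-07). DPB3, a small histone-fold subunit, had 41.4 and 43.2 CPM induced, against 23.5 and 22.6 CPM uninduced (0.85 ± 0.084, adjusted p = 1.22e-06). No induced library overlapped the uninduced ones in either gene, as in 86.0% of all genes kept. DPB4, the histone-fold partner of DPB3, fell by 0.30 (30.1 ± 1.81 CPM induced, 37.2 ± 1.17 CPM uninduced, adjusted p = 0.00685), but not without induced library 2 (-0.24, adjusted p = 0.0703) or with total-count scaling (-0.18, adjusted p = 0.0812). DPB2, the essential second subunit, rose by 0.36 (32.9 ± 5.02 CPM induced, 25.4 ± 1.14 CPM uninduced, adjusted p = 0.00922), and without induced library 1 it was at 0.205 and not called (adjusted p = 0.152). Per coding length, DPB3 was 7.67 and 8.13 times POL2 in the induced libraries, against 2.72 and 2.55 times in the uninduced libraries. The catalytic subunits of delta and epsilon also changed places: the ratio of POL3 to POL2 was 1.502 and 1.58 in induced cells, against 0.781 and 0.902 in uninduced cells.

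PCNA, the ring-shaped clamp that tethers polymerases to DNA, is encoded by POL30. It had 32.9 and 35.5 CPM in the induced libraries, against 64.1 and 60.3 CPM in the uninduced libraries (-0.85 ± 0.077, adjusted p = 5.31e-07), the largest fall of any member, with a ratio of means of 0.549. Replication factor C, which opens and loads the clamp, did not follow it as a whole. RFC1, the large subunit, fell by 0.23 (108 ± 4.26 CPM induced, 126 ± 0.515 CPM uninduced, adjusted p = 0.00272), and RFC5 fell by 0.29 (57.2 ± 4.37 CPM induced, 70.3 ± 0.0488 CPM uninduced, adjusted p = 0.00252). Both calls were lost with total-count scaling, at -0.10 (adjusted p = 0.123) and -0.17 (adjusted p = 0.0502). RFC2 rose by 0.28 (125 ± 4.17 CPM induced, 103 ± 1.74 CPM uninduced, adjusted p = 0.000682). RFC3 (-0.02) and RFC4 (0.10) were not called, and RFC4 was called with total-count scaling (0.22, adjusted p = 0.0266). RFC5 and POL30 are neighbours on chromosome II that end 160 bases apart and face each other. The strand setting of the counting is not given in the sources used here, so reads past either end cannot be assigned with certainty.

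Replication protein A coats single-stranded DNA behind the helicase. RFA1, its large subunit, averaged 105 ± 0.409 CPM induced and 119 ± 3.02 CPM uninduced (-0.18 ± 0.055, adjusted p = 0.00958). RFA2 averaged 62.0 ± 1.25 CPM induced and 74.8 ± 0.933 CPM uninduced (-0.27, adjusted p = 0.00211). RFA1 was not called without uninduced library 1 (-0.16, adjusted p = 0.0522) or induced library 2 (-0.18, adjusted p = 0.0513), and neither gene was called with total-count scaling (-0.06 and -0.14). RFA3, the smallest subunit, was at 60.3 ± 2.94 CPM induced and 55.8 ± 1.97 CPM uninduced (0.11, adjusted p = 0.18), and was called higher with total-count scaling (0.23, adjusted p = 0.0117).

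The last pair act at the end and at the supply side of synthesis. CDC9, the ligase that seals Okazaki fragments, had 92.0 and 91.9 CPM in the induced libraries, against 72.0 and 68.8 CPM in the uninduced libraries (0.38 ± 0.061, adjusted p = 9.6e-05). CDC21, thymidylate synthase, had 35.6 and 36.3 CPM induced, against 46.5 and 49.2 CPM uninduced (-0.40 ± 0.077, adjusted p = 0.000411). Neither passed the test against a 1.2-fold change (adjusted p = 0.0824 and 0.0983).

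**Figure D3:**
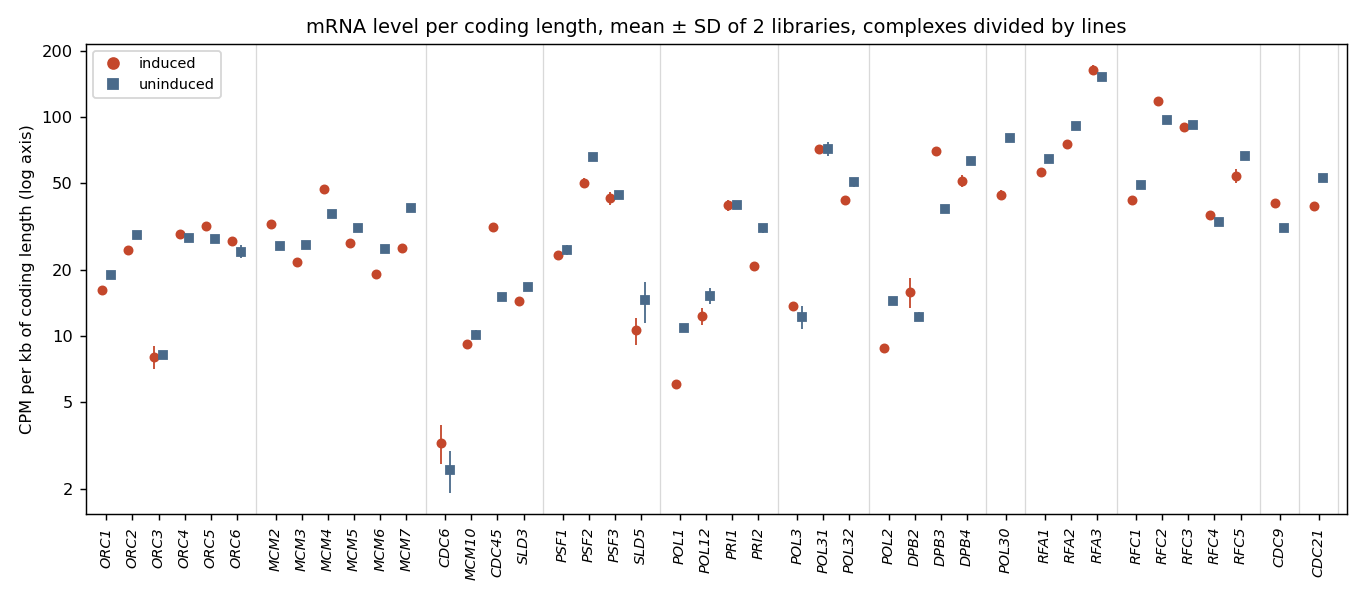
Level of each member per kb of coding length (log axis), mean ± SD of 2 libraries, with induced points left of uninduced ones. RFA3 is highest at 163 CPM per kb induced and 151 uninduced, and CDC6 lowest at 3.26 CPM per kb induced and 2.45 uninduced.

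Levels within a complex were far from equal per coding length, in both groups. The division used coding length alone, and other effects of gene length on read counts were not tested. In polymerase alpha-primase, PRI1 was 6.53 times POL1 in induced cells and 3.62 times in uninduced cells. In polymerase epsilon the highest and lowest genes themselves changed: DPB3 and POL2 in induced cells (69.8 and 8.84 CPM per kb), DPB4 and DPB2 in uninduced cells (62.9 and 12.2 CPM per kb). ORC3 was the lowest ORC gene in both groups, at 8.03 CPM per kb induced and 8.16 CPM per kb uninduced. In replication protein A, RFA3 was 2.91 times RFA1 in induced cells and 2.37 times in uninduced cells. Among the clamp loader genes RFC2 was highest and RFC4 lowest, with a ratio of 3.30 induced and 2.93 uninduced.

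Cell cycle promoter letters were more frequent among the members than among all promoters. The MluI cell cycle box (MCB), the letters ACGCGT, is the binding sequence of MBF. It was in the 300-base window of 17 of the 42 members (40.5%), against 3.07% of 6001 promoters. The Swi4 box (SCB), CNCGAAA on either strand, was in 14 members (33.3%), against 13.8% of promoters. At least 1 of MCB, SCB and the ECB palindrome was in 27 members (64.3%), against 17.1% of promoters. As a contrast, the stress element AGGGG was in 4 members (9.52%), against 21.6% of promoters.

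MCB did not sort the members by direction. Of the 17 with MCB, 3 rose (CDC45, DPB2, CDC9), 9 fell and 5 were not called, with a median of -0.18 and a range of -0.85 to 1.03. The 25 without it had 5 higher and 12 lower, with a median of -0.13. CDC45 and POL1 each held a pair of MCB sites, and they moved by 1.03 and -0.83. Over all 178 tested genes with MCB, 64 rose and 65 fell. Windows are shown for CDC45, DPB3, POL30 and POL1, the 4 members with the largest differences, and for MCM7 and MCM4, the ring genes with the largest fall and the largest rise. They are given 5′ to 3′ on the gene's strand, from 250 bases before to 50 bases after the start codon, with MCB, SCB and ECB core letters in capitals. They are CDC45 at chrXII:345892-346191 (minus strand), POL1 at chrXIV:429837-430136 (plus strand), POL30 at chrII:425717-426016 (minus strand), DPB3 at chrII:760044-760343 (plus strand), MCM7 at chrII:625522-625821 (plus strand) and MCM4 at chrXVI:596500-596799 (plus strand), all in R64.
CDC45: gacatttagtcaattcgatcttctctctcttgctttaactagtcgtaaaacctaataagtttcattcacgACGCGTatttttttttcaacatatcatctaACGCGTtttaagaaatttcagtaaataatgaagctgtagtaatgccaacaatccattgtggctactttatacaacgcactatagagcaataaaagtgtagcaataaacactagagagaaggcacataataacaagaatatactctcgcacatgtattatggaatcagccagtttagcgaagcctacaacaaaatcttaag
POL1: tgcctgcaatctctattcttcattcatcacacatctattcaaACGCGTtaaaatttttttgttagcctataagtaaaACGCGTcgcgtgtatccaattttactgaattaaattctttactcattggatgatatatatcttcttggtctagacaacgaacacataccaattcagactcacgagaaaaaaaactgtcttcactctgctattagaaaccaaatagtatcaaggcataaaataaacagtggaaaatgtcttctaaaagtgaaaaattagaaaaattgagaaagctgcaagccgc
POL30: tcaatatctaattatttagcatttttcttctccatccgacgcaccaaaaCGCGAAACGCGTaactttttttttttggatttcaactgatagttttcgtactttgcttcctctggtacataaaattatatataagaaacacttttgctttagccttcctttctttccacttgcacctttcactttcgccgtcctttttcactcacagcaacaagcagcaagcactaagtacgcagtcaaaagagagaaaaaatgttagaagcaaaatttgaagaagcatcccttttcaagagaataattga
DPB3: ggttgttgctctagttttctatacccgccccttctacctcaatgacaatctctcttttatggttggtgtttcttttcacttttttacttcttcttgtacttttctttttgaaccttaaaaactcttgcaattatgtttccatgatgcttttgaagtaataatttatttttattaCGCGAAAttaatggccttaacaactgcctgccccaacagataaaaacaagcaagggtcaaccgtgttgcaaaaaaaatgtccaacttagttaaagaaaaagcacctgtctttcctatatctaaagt
MCM7: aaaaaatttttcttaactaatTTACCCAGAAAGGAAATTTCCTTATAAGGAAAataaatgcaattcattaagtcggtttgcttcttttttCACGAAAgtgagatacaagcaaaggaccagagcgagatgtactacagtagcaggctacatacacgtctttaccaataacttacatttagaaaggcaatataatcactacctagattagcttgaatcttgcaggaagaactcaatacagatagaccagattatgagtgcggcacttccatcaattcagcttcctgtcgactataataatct
MCM4: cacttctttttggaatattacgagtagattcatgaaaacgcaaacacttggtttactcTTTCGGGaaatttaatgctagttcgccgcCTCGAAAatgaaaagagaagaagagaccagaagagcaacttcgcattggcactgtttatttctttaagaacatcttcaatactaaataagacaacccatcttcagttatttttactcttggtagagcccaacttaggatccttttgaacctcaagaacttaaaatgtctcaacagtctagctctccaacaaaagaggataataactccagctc

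In these windows the capitals of CDC45 and POL1 are MCB sites, with CDC45 sites beginning at -180 and -150 and POL1 sites at -208 and -173, counted from the start codon. POL30 has an SCB at -201 that shares a base with its MCB at -195, and DPB3 has an SCB at -76. In MCM7 the ECB pair comes first and an SCB follows. MCM4, which rose, holds a pair of SCB sites and no ECB. MCM5, whose window is not shown, fell and also holds a pair of SCB matches. Of the 14 members with SCB, 5 rose, 8 fell and 1 was not called. Over all 792 tested genes with SCB, 292 rose and 298 fell. A motif search of this kind says nothing about whether a factor was bound.

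**Figure D4:**
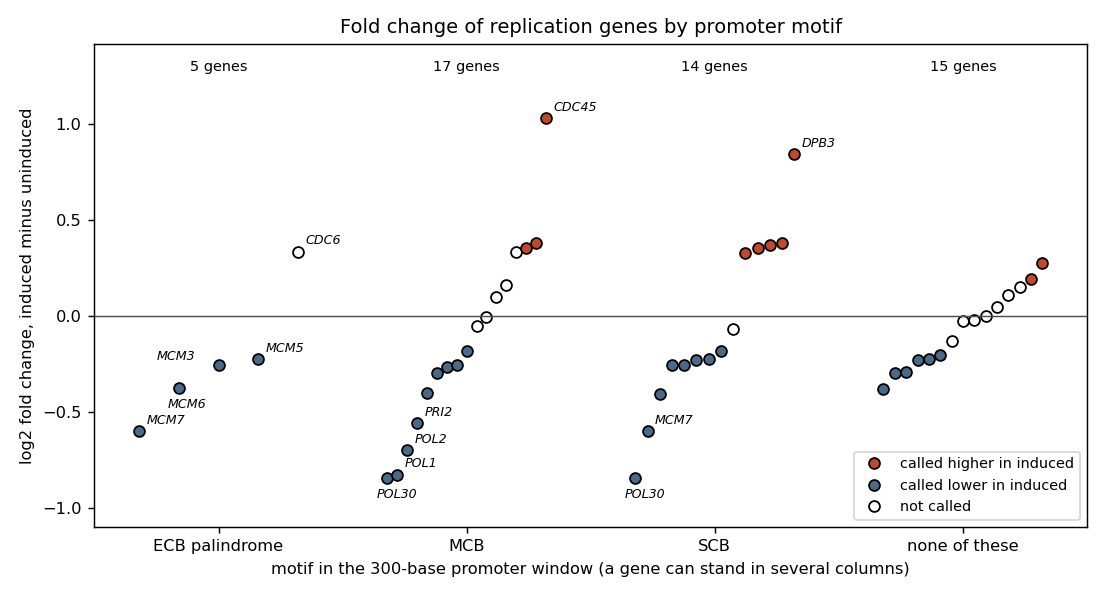
Log2 fold change (induced minus uninduced) of the members that hold each motif in the 300-base promoter window, with filled points for called genes. The 17 MCB genes span -0.85 to 1.03, and of the 5 genes with the ECB palindrome 4 were called lower and CDC6 (0.34) was not called.

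Genes that work beside these proteins were read from lists written out by name. Their counts stand beside 35.6% of all genes kept that rose and 37.0% that fell. Among 5 genes of the alternative clamp loaders, which share the small RFC subunits but replace Rfc1, 4 rose and 0 fell, with a median of 0.30. CTF18, the large subunit of the loader used in sister chromatid cohesion, averaged 92.7 ± 4.39 CPM induced and 40.3 ± 0.268 CPM uninduced (1.18, adjusted p = 6.8e-09). RAD24, the large subunit of the checkpoint clamp loader, rose by 0.76 in the same comparison (49.0 CPM induced, 28.6 CPM uninduced). Of 9 genes of Okazaki fragment maturation and fork helicases, 3 rose and 4 fell. RAD27, the flap endonuclease that works with PCNA and Cdc9, fell by 0.86 (33.8 ± 0.302 CPM induced, 62.4 ± 3.97 CPM uninduced), and RNH202 of RNase H2 fell by 0.63. Of 6 other initiation factors, 1 rose and 2 fell. DPB11, a scaffold for initiation, fell by 0.30, and the kinase gene CDC7 rose by 0.26, a call lost without induced library 1 (0.19, adjusted p = 0.126).

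Other lists also held genes of both directions, as did all genes kept (35.6% higher, 37.0% lower). In 13 genes of fork protection and the checkpoint, 3 rose and 3 fell, with TOF1 at -0.50 and the checkpoint clamp gene RAD17 at 0.56. Of 5 translesion and repair polymerase genes, 3 rose and 1 fell (REV7 at 0.79, REV1 at -0.41). Among 7 genes of deoxynucleotide supply, 3 rose and 3 fell. RNR2, a small subunit of ribonucleotide reductase, averaged 1549 ± 30.0 CPM induced and 382 ± 18.3 CPM uninduced (2.02). RNR4, the other small subunit gene, fell by 0.23. RNR3, a large subunit gene, rose by 1.38 (31.7 ± 2.12 CPM induced, 11.6 ± 1.62 CPM uninduced). DFR1, dihydrofolate reductase, which regenerates the cofactor that CDC21 consumes, rose by 1.68 (73.3 ± 2.85 CPM induced, 22.2 ± 1.33 CPM uninduced), opposite to CDC21. In 8 cohesin genes, 2 rose and 2 fell (PDS5 at -0.73, ECO1 at 0.40), and ECO1 was not called without uninduced library 2 (0.26, adjusted p = 0.0507) or induced library 2 (0.32, adjusted p = 0.0819). Of 9 genes of chromatin assembly at forks, 2 rose and 3 fell, with the histone chaperone genes VPS75 at -1.24 and ASF1 at -0.72. Apart from RNR3 and RNR4, which were not followed there, none of the genes named from these lists changed direction with total-count scaling.

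Markers of cell cycle phases differed between the groups too, where 35.6% of all genes kept rose and 37.0% fell. All 8 core histone genes, which peak in S phase, fell, with a median of -0.93 and a summed level of 2183 and 2364 CPM in the induced libraries, against 3954 and 3954 CPM in the uninduced libraries. HTB2 fell by 1.46, and HTA2 averaged 74.6 CPM induced and 172 CPM uninduced. Of 13 M/G1 genes, 2 rose and 11 fell (median -0.84), with sums of 3111 and 3043 CPM induced and 5547 and 5769 CPM uninduced, led by the daughter-cell genes DSE2 (-1.87) and DSE1 (-1.62). Of 14 G2/M genes, 2 rose and 8 fell (median -0.22), with sums of 826 and 813 CPM induced and 925 and 912 CPM uninduced, and the mitotic cyclin genes CLB1 and CLB2 were at -0.99 and -0.67. Of 21 G1/S genes outside the members, 5 rose and 11 fell (median -0.17), with sums of 1602 and 1584 CPM induced and 1520.1 and 1430.4 CPM uninduced. Such sums weigh strongly expressed genes most, and SVS1 alone averaged 453 CPM induced and 269 CPM uninduced. RNR1, NRM1, ASF1, SMC3 and MCD1 are counted in this G1/S list and in another list too. RNR1, the other large subunit gene of ribonucleotide reductase, fell by 1.37, opposite to RNR3. The S-phase cyclin gene CLB6 fell by 1.43, with 0.404 ± 0.117 CPM induced and 2.79 ± 0.590 CPM uninduced. Of 6 genes of G1/S regulators, 0 rose and 4 fell, led by the repressor genes WHI5 (-1.19) and NRM1 (-0.88). The part of cell cycle position in the members' differences was not tested.

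**Figure D5:**
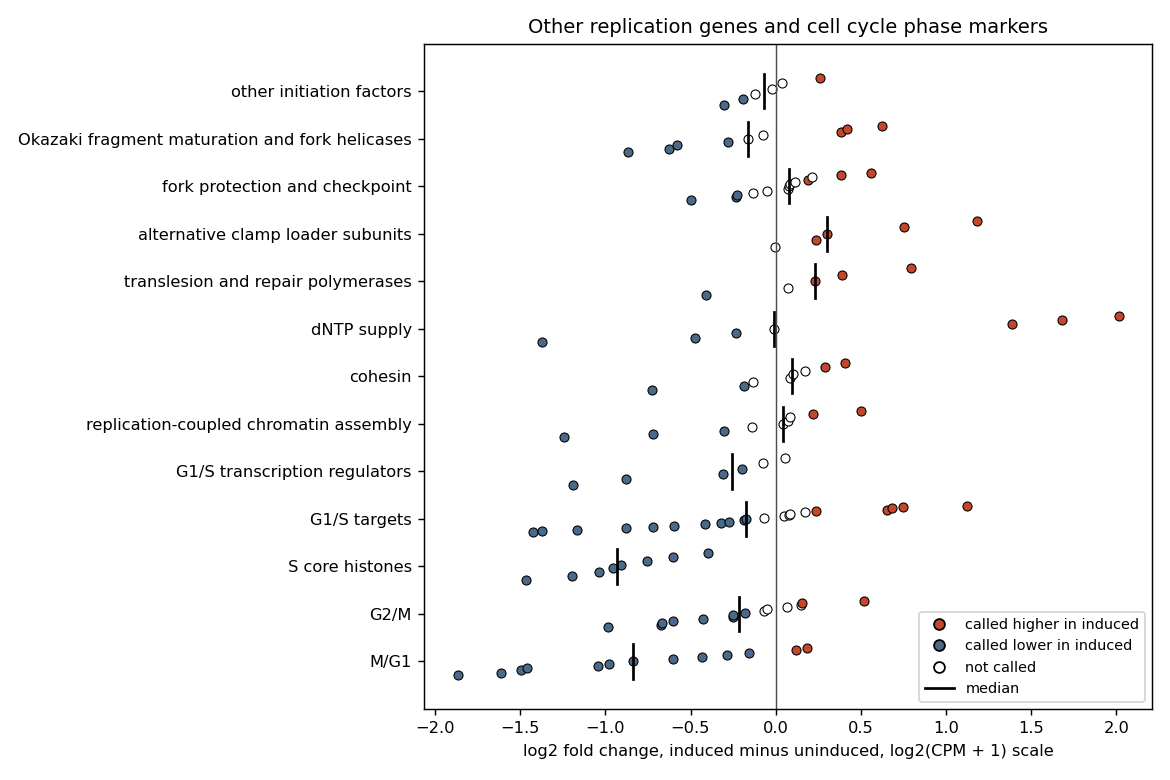
Log2 fold change (induced minus uninduced) of the genes of each further list, with the list's median as a vertical bar and filled points for called genes. The 8 core histone genes all lie below 0, from -1.46 to -0.39, while 4 of 5 alternative clamp loader genes lie above 0.

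The authors' deposited table was more sparing with calls. At its own adjusted p under 0.05 it called 3 members higher (CDC45, DPB3 and CDC9) and 6 lower (MCM6, MCM7, POL1, PRI2, POL2 and POL30), where it called 41.9% of the genes kept (20.3% higher, 21.6% lower). Each of these 9 was called here in the same direction. In the authors' deposited table MCM4 had a log2 fold change of 0.38 with adjusted p = 0.0529, and MCM2 0.34 with adjusted p = 0.0965.

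Dubious reading frames overlap 6 members (CDC6, DPB3, POL30, RFC1, CDC9 and CDC21) by the descriptions in the deposited table, and none of these frames exceeded 1.45 CPM in a library. How reads in an overlap were counted is not given in the sources used here. A low level of such a frame thus cannot show that the member's count was unaffected.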

How the data were processed

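RNA of 4 libraries, 2 per group, was prepared with a stranded mRNA kit per the labels' protocols. The submitters' processing notes list TopHat2 (2.0.13), HTSeq and edgeR beside the builds R64 and sacCer3, but give no roles. For the strand setting, annotation release and filters, the entry is: not given in the sources used here. The deposited signal per gene and library is a normalized CPM, read counts scaled by the authors' library size, per the file headers. Dividing each column by its smallest step gave whole reads for all values, with a tolerance of 0.001 reads. The step of uninduced library 2 is close to a round fraction, so there the evidence for whole reads is weaker. The deposited log2 fold change and p-value columns are the authors' own and were used as a description.

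Values were transformed to log2(CPM + 1) and tested two-sided in limma 3.58.1 under R 4.3.3. The model held only the group and allowed a variance trend, with Benjamini-Hochberg adjustment over 6037 genes with a mean of at least 1 CPM. Recovered reads were tested with edgeR 4.0.16 and DESeq2 1.42.0 as alternatives. Fits were tested on simulated data. Promoters were cut from the R64 reference, the build the notes name, by RefSeq gene starts. Of 6782 IDs, 5979 matched RefSeq. Replicates differed by more than sampling noise (chi-square per degree of freedom 4.94 for the induced pair and 4.69 for the uninduced pair).

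The members and lists were chosen with earlier results of these data known. Named genes are all 42 members and, from each further list, the 2 called genes with the largest change. RNR3 and RNR4 are named in addition, as the other subunit genes of ribonucleotide reductase. The planned unit was plain CPM, and the planned test was kept. The design text calls the 2 cultures per group biological replicates.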

Additional observations from a re-analysis of the deposited data

How the results depend on the processing

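The members' calls were 8 higher and 21 lower. They were 2 and 5 against a 1.2-fold change, which asks for more than a difference from 0, and all genes then gave 1286 higher and 1399 lower, in place of 2152 and 2235. Total-count scaling left 8 members lower (12 higher) and put their median at -0.034, in place of -0.16. That median was -0.14 with a pseudocount of 5, -0.18 with a minimum of 5 CPM, which drops CDC6, and -0.19 after quantile normalization. Leaving out 1 library gave 6 to 9 members higher, 16 to 19 lower, a median of -0.17 to -0.15, and 1888 to 2087 genes higher and 2016 to 2164 lower. Of 671 member values under the alternatives, 602 stayed on the same side of the threshold, 63 lost a call, 6 gained one and 0 reversed. edgeR on recovered reads called 8 members higher and 20 lower, and DESeq2 called 7 and 16.

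Libraries share replicate numbers, but nothing says that a number marks a shared batch, and deviations of same-numbered libraries correlated at -0.14 across genes. With the replicate block 8 members were higher and 21 lower, and 2219 and 2293 of all genes. Crossing the pairing, an alternative added after the data were seen, gave 8 and 20 members and 2162 and 2237 genes. Among the members depth limits CDC6 most, with 32 reads in its lowest library. CLB6, a phase marker, had 5 reads in its lowest library, and its difference ran from -2.80 to -0.53 over the alternatives, lower in each.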

Other observations

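The gene that shares its upstream region with CDC45 rose as well. LCL2, chosen after its values were seen, starts on the opposite strand with 643 bases between the frames. It had 137.5 and 120.4 CPM in the induced libraries, against 50.5 and 48.8 CPM in the uninduced libraries (1.36 on the log2 scale, limma adjusted p = 3.29e-09), beside 1.03 for CDC45. Of 26 members with a tested divergent upstream neighbour, both genes were called in 12 pairs. The direction was the same in 8 and opposite in 4. Of all genes kept, 72.7% were called (35.6% higher, 37.0% lower). The same count over all divergent pairs was not made, so these numbers are a description only. The divergent neighbours of DPB3 and DPB2, PPS1 and YPR174C, were called higher, at 0.41 and 0.83, with gaps of 250 and 265 bases. Both genes fell in other pairs, such as TRM1 (-1.70) beside DPB4 (-0.30), 323 bases apart. Opposite pairs included YBR201C-A (0.63) beside MCM7 (-0.60), 1075 bases apart, and DCW1 (0.40) beside PRI2 (-0.56), 868 bases apart. The named pairs were also chosen after their values were seen.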
